A study of Mus musculus with 41 samples.

Results

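The cytosolic ribosomal protein genes of mouse mammary tumors are described here, tumor by tumor. Members were the genes whose symbol is Rpl or Rps followed by a number, with or without a closing letter or paralog suffix, together with Rplp0, Rplp1, Rplp2 and Rpsa. Names with -ps were left out, as was Rps27l. The rule matched 87 symbols, and 86 of the 47480 genes in the table had a mean of at least 10 over the 41 tumors. The gene that missed this mean was Rpl10l, which was listed at 0, and the lowest means that passed were those of Rpl3l at 14.97, Rpl39l at 57.8 and Rps4l at 57.9. Of the 86 members, 77 are canonical genes, 46 of the large and 31 of the small ribosomal subunit. The other 9 are paralogs or further copies of a canonical gene.

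All tumors arose in Balb/c mammary epithelium without p53, and grew untreated in the mammary fat pad of syngeneic hosts. The 28 Plk2-/-; p53-/- tumors lack the polo-like kinase Plk2 as well, and the 13 p53-/- tumors are the comparison group. The study placed PLK2null_732, PLK2null_733 and PLK2null_743 in the claudin-low class by clustering the RNA of these libraries, so a claudin-low comparison is not independent of how the class was made. T11 is the p53-/- tumor of that class. The labels do not say which tumors are passages of one primary tumor, so p-values measure the spread between these tumors only. Deposited Plk2 values were 36.6, 284 and 553 as lowest, median and highest in Plk2-/-; p53-/- tumors, and the lowest p53-/- value was 186, in p53-null_7435, while the other 12 p53-/- tumors were at 921 or above.

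A ribosome is built from ribosomal RNA and one copy of most ribosomal proteins, so cells make these proteins in step. Their messages are short and abundant and begin with a run of pyrimidines that ties their translation to the mTOR pathway, and their promoters often hold sites for ETS family and other general factors. Most canonical genes have no close functional relative, but Rpl3l is known from heart and skeletal muscle, Rpl39l from the male germ line, and Rpl22l1 as a relative of Rpl22 that is made when Rpl22 is lost. Free Rpl5 and Rpl11 are known for binding Mdm2, the ubiquitin ligase of p53, and p53 itself is deleted in these tumors.

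Promoters show what the family shares in sequence. Of the 86 members, 61 had an entry in the RefSeq promoter table on GRCm38.p6, 57 of them canonical. The letters CCGGAAG, an ETS-type core, were searched on both strands of the 300 bases from 250 before to 50 after the start, and 23 of 57 canonical members (40.4%) held them, against 9.12% of 27025 promoters. The letters CTTTC, common at the start of such pyrimidine runs, were searched on the transcribed strand in the 60 bases from 35 before to 25 after the start. They were in 18 of 57 canonical members (31.6%) and in 7.84% of all promoters. The following 60-base windows are shown because they belong to members described below, among them both tissue-restricted paralogs, with CCGGAAG and CTTTC in capitals and all written on the transcribed strand. They lie at chr2:180257344-180257403 (Rps21, plus strand), chr10:128626482-128626541 (Rps26, minus), chr2:39005107-39005166 (Rpl35, minus), chr4:136053369-136053428 (Rpl11, minus), chr17:24727791-24727850 (Rpl3l, plus) and chr16:10170193-10170252 (Rpl39l, plus).
Rps21: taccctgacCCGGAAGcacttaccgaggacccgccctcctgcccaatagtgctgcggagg
Rps26: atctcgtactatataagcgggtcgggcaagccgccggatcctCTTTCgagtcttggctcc
Rpl35: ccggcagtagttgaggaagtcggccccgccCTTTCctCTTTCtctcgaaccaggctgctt
Rpl11: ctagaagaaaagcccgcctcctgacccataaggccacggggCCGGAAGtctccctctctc
Rpl3l: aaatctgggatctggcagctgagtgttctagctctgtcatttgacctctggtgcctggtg
Rpl39l: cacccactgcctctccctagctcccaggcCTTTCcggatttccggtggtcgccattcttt
The windows are examples and say nothing of how common either motif is, and a match describes the letters and not a bound factor.

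Values are the authors' gene-level estimates, scaled so that each library has the same upper quartile, and differences between groups are on the log2(value + 1) scale. Libraries held 31881106 to 53202237 fragments in Plk2-/-; p53-/- tumors and 29371075 to 70837030 in p53-/- tumors, estimated from the smallest steps between low values, so all canonical members were far above a floor of 3 reads. The totals and the floor are approximate, since not all low values lay on a whole step. Every p53-/- library has a numbered series name in its title and no Plk2-/-; p53-/- library has one, so a library series and the genotype cannot be told apart.

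Within the Plk2-/-; p53-/- group, 12 libraries stood apart. They are PLK2null_1977, PLK2null_1980, PLK2null_1981, PLK2null_1984, PLK2null_1985, PLK2null_1986, PLK2null_1987, PLK2null_1988, PLK2null_1989, PLK2null_7750, PLK2null_7753 and PLK2null_7764. The set was defined by Gm26649, a noncoding gene on chromosome 1, which was listed at 0 in all 12. In the other 29 libraries of both genotypes Gm26649 was at 39.3 to 492. Gm17035, an antisense gene on chromosome 15, was at 55.4 to 1094 in the 12 and at 1.24 or lower in the 29. None of the labels separates these 12 libraries, and what sets them apart was not tested. Of 17208 tested genes, 1.31% were lower in each of the 12 than in any of the other 16 Plk2-/-; p53-/- tumors and 0.599% were higher. Among the 77 canonical members 10 were lower in this way, among them Rpl3, Rpl9, Rpl24, Rpl35a, Rpl39, Rps15a, Rps18, Rps19 and Rps20, and 1 was higher, Rps26, all named after their values were seen. Results on the genotype are therefore also given for the 16 remaining Plk2-/-; p53-/- tumors against the 13 p53-/- tumors, a choice made after seeing the data.

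Canonical members rose and fell together from tumor to tumor. For each tumor a shared level was taken as the median, over the 77 canonical members, of the log2 deviation from that gene's median tumor. In p53-/- tumors the shared level was 0.10 at the lowest, 0.72 at the median and 1.13 at the highest. In Plk2-/-; p53-/- tumors it was −0.70, −0.22 and 0.32. These groups overlapped in 5 tumors only: 4 Plk2-/-; p53-/- tumors (PLK2null_7747, PLK2null_1963, PLK2null_1970 and PLK2null_1971) lay above the lowest p53-/- tumor, p53-null_10155, which was itself the single p53-/- tumor below the highest Plk2-/-; p53-/- tumor. The 12 libraries that stood apart were at −0.70 to −0.13, with a median of −0.41, and the 16 others at −0.40 to 0.32, with a median of −0.05.

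**Figure D1:**
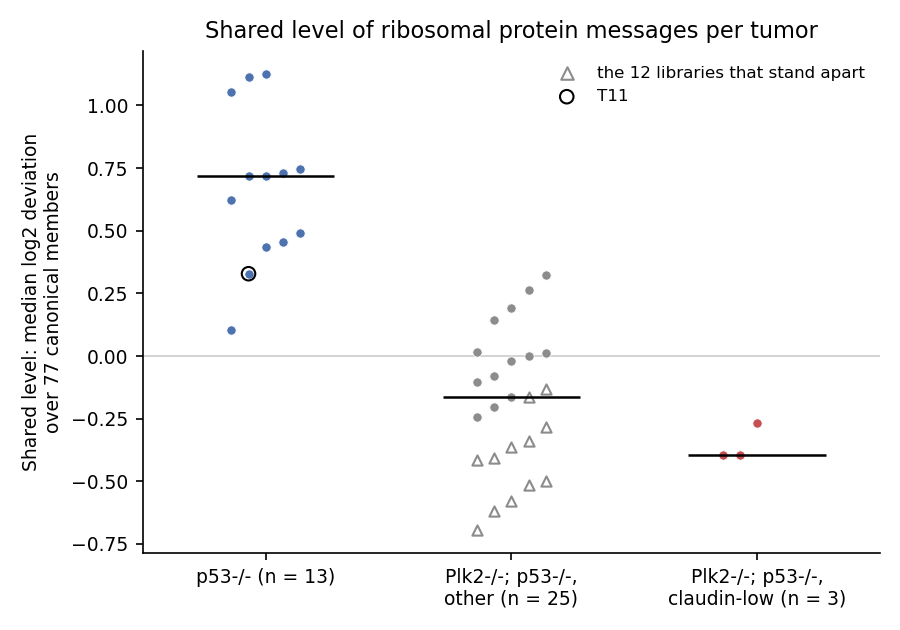
Shared level of 77 canonical ribosomal protein messages (vertical axis, median log2 deviation from each gene's median tumor) in each tumor of 3 groups (horizontal axis), with group medians as bars, the 12 libraries that stood apart as open triangles and T11 ringed. The p53-/- tumors span 0.10 to 1.13 and the 28 Plk2-/-; p53-/- tumors −0.70 to 0.32, and the triangles fill the lower part of that range.

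As a share of the deposited total, canonical members made up 5.48% to 10.5% in p53-/- tumors, with a median of 7.74%, and 3.25% to 5.90% in Plk2-/-; p53-/- tumors, with a median of 4.29%. In bulk tumor RNA, fewer cells of a type and less RNA per cell cannot be told apart. The correlation of each canonical member with the median of the other canonical members had a median of 0.86 over the 41 tumors, as a description, since all members of a tumor share its library. Of the 77, 56 were above 0.8. Rplp0, the scaffold of the stalk, Rps21 and Rps9 followed the others most closely, each at 0.97, and among the lowest were Rps26 at 0.07, Rpl23 at 0.30, Rpl23a at 0.31 and Rps2 at 0.44. Without the 12 libraries the lowest were Rpl23 at 0.41 and Rps7 at 0.45, and Rps26 was at 0.80. These values pool both genotypes, whose shared levels differ. Within the Plk2-/-; p53-/- tumors the median correlation was 0.74, with 25 members above 0.8 and 20 below 0.5. Within the p53-/- tumors the median was 0.75, with 22 above 0.8 and 10 below 0.5.

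The first comparison asks how tumors with and without Plk2 differ on a p53-/- background. Canonical ribosomal protein messages were lower in Plk2-/-; p53-/- tumors: 72 of 77 (93.5%) passed the threshold as lower and 0 as higher, with a median log2 fold change of −0.91. Over all 17208 genes, 15.3% were called lower and 24.3% higher, with a median of 0.10. Among large subunit members 43 of 46 were lower, with a median of −0.80, and among small subunit members 29 of 31, with a median of −1.03. In the 16 tumors left after the 12 libraries were set aside, 71 of 77 were lower against 9.94% of all genes called lower and 22.4% higher, with a median of −0.73 beside 0.17 for all genes. With rescaling by trimmed means (TMM) the all-gene median moved from 0.10 to −0.07 and 55.7% of all calls were lower instead of 38.6%, while 73 canonical members were lower, with a median of −1.07.

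Rps21, a protein of the small subunit, had the lowest fold change among canonical members. Its deposited value was 3091, 5516 and 11629 as lowest, median and highest in Plk2-/-; p53-/- tumors and 9506, 20857 and 63766 in p53-/- tumors. The ranges met only where the highest Plk2-/-; p53-/- tumors reached the lowest p53-/- tumors. The fold change was −1.85 (SE 0.21, adjusted p = 2.46e-09) and −1.47 (SE 0.22) without the 12 libraries. The gene lies at chr2:180257377-180258445.

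Rpl39, a very small protein at the exit tunnel for the growing chain, was at 2024, 5467 and 10778 in Plk2-/-; p53-/- tumors and at 10217, 15718 and 22457 in p53-/- tumors. Its fold change was −1.66 (SE 0.20, adjusted p = 1.37e-08). The 12 libraries held its lowest values, 2024 to 4429, and the fold change was −1.14 (SE 0.13) without them. Rps19, whose human counterpart is mutated in Diamond-Blackfan anemia, was at 4506, 11113 and 22237 against 15267, 24599 and 56513. Its fold change was −1.47 (SE 0.23, adjusted p = 1.32e-06), and −0.91 (SE 0.18) without the 12 libraries.

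Rpl3, a core protein near the peptidyl transferase center, was the only canonical member whose groups did not overlap. It was at 11799 to 28649 in the 28 Plk2-/-; p53-/- tumors, with a median of 18072, and at 31010 to 50253 in the 13 p53-/- tumors, with a median of 38059. Such a separation toward lower values was found in 0.227% of all tested genes. It was taken without Rpl3-ps1, a copy 99.8% identical to Rpl3 with a mean of 9001, with which reads can be shared. Its fold change was −1.06 (SE 0.12, adjusted p = 3.21e-09), and −0.78 (SE 0.10) without the 12 libraries.

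The stalk proteins, which recruit translation factors, were all lower. Rplp0 was at 16878, 23166 and 42154 in Plk2-/-; p53-/- tumors and at 29779, 49982 and 79339 in p53-/- tumors, a fold change of −1.09 (adjusted p = 8.35e-09). Rplp1 and Rplp2 had fold changes of −1.29 and −1.22. Rps6, the substrate of S6 kinase, was at 12304, 18879 and 24604 against 21348, 33995 and 51579, a fold change of −0.87 (adjusted p = 1.71e-08).

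Several members named for roles outside the ribosome were lower, as were 93.5% of all canonical members. Rpl23, described below, binds Mdm2 too and did not pass. Rpl5 and Rpl11, which bind Mdm2 with 5S ribosomal RNA, had fold changes of −0.60 (adjusted p = 1.25e-05) and −0.75 (adjusted p = 7.87e-06). Rpl22 was at −0.90, Rpl13a, known for translational silencing after interferon, at −1.22, Rps14, lost in the human 5q- syndrome, at −1.35, and Rpsa, also known as a laminin receptor, at −0.90. All of these stayed past the threshold without the 12 libraries, at −0.44 for Rpl5, −0.78 for Rpl11, −0.61 for Rpl22, −0.98 for Rpl13a, −1.04 for Rps14 and −1.03 for Rpsa.

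Of the 77 canonical members 5 did not pass the test, among them Rpl23, Rpl23a, Rps7 and Rps26. Rpl23, which also binds Mdm2, was at 8824, 19662 and 28999 in Plk2-/-; p53-/- tumors and at 15372, 19182 and 33134 in p53-/- tumors. Rpl23a, a docking site for factors that meet the growing chain, was at 13019, 25361 and 31518 against 15947, 25557 and 35695. For both genes the medians of the groups were close and the ranges overlapped. The fold changes were −0.08 (SE 0.12, adjusted p = 0.628) and −0.11 (SE 0.12, adjusted p = 0.507), and −0.09 and −0.21 without the 12 libraries, again short of the threshold.

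Rps26, which contacts messenger RNA at the exit channel of the small subunit, lies at chr10:128624534-128626747. Over all tumors its fold change was −0.38 (adjusted p = 0.212), but the group held separate sets of values. The 12 libraries that stood apart were at 17595 to 28432, the 16 others at 4578 to 14539, and the p53-/- tumors at 10474 to 23357. Without the 12 libraries the fold change of Rps26 was −1.02 (SE 0.16, adjusted p = 1.29e-05). In the 29 libraries 6 canonical members did not pass the test: Rpl23, Rpl23a, Rps7, Rpl26, Rpl30 and Rpl37, the last 3 named after their values were seen.

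Transcript length moved with the genotype difference outside the family too. Other protein-coding genes with transcripts of up to 600 bases had a median fold change of −0.60, and 44.3% of these 140 genes were lower. The median was −0.43 for 601 to 1000 bases, −0.23 for 1001 to 2000, 0.03 for 2001 to 4000 and 0.37 above 4000 bases. Canonical members were below the other genes in each class, at −1.07, −0.91, −0.72, −0.99 and −1.07, with 4 members and 1 member in the last classes. Length was that of an annotated transcript per gene, which need not be the expressed one. Rps15a, the member in the last class, was at 2620 per kilobase, the lowest of the canonical members, whose median was 20878. The last classes may therefore not describe long ribosomal protein messages. The same order was present without the 12 libraries, where the other genes ran from −0.57 in the shortest to 0.44 in the longest class and canonical members from −0.78 to −0.61. The part of transcript length in the difference was not tested.

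**Figure D2:**
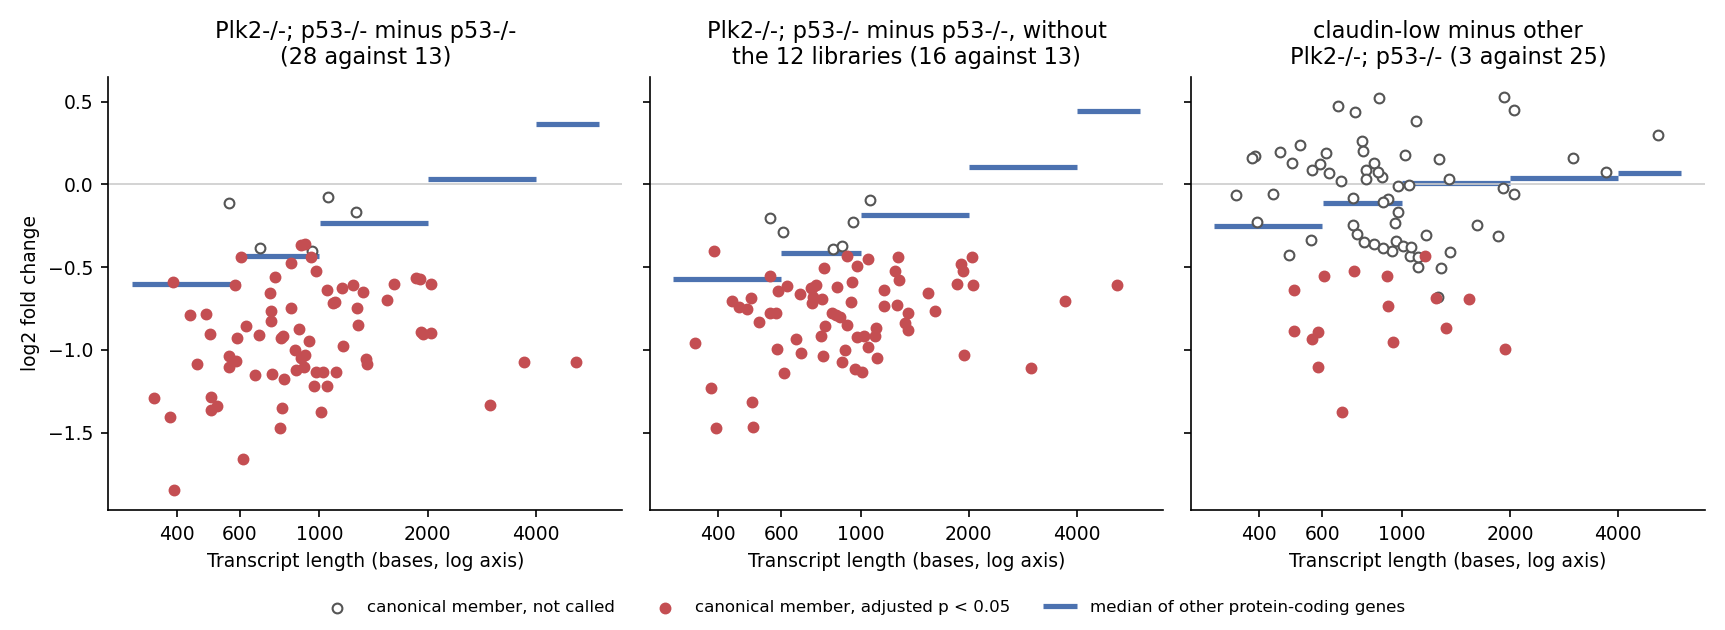
Log2 fold change (vertical axis) of the 77 canonical members against transcript length in bases (horizontal log axis) for Plk2-/-; p53-/- against p53-/- tumors, the same without the 12 libraries, and claudin-low against other Plk2-/-; p53-/- tumors. Filled points passed an adjusted p threshold of 0.05, and blue bars are medians of other protein-coding genes per length class, from −0.60 to 0.37 in the first panel, where most members lie below them.

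Genes that work with the ribosome were fitted alongside, and their counts stand beside 15.3% of all genes lower and 24.3% higher. Fau, which makes Rps30 fused to a ubiquitin-like protein, was lower by a fold change of −1.41 (adjusted p = 4.41e-10), and it also passed as lower without the 12 libraries. Of 23 translation factors with pyrimidine-run messages 15 were lower and 3 higher, with a median of −0.53: Eef1b2 was at −1.15, Eef1g at −1.12, Naca at −0.95 and Eef1a1 at −0.56. Of 77 mitochondrial ribosomal protein genes 49 were lower and 1 higher, with a median of −0.47. Of 47 tested genes for ribosome biogenesis and RNA polymerase I 14 were lower and 4 higher, with a median of −0.13. These lists were not matched for transcript length. Other protein-coding genes of up to 600 bases had a median of −0.60, with 44.3% lower. Those of 601 to 1000 bases had a median of −0.43, with 42.2% lower, near the median of the mitochondrial genes.

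Of 18 genes for S6 kinase, pyrimidine-run and Myc regulation 7 were higher and 2 lower, with a median of 0.16 beside 0.10 for all genes. The lower count was near the background. Rps6kb1, which encodes S6 kinase 1, was higher by 1.10 (adjusted p = 1.74e-11), Tsc1, an inhibitor of mTOR signaling, by 0.80 and Mga, a Myc network repressor, by 1.04. They are examples from the higher side, and the 2 lower genes are not named. This list was not matched for transcript length either, and other protein-coding genes above 4000 bases had a median of 0.37. Without the 12 libraries, where 9.94% of all genes were lower and 22.4% higher, the counts were 14 lower and 2 higher for the translation factors, 37 lower and 0 higher for the mitochondrial genes, 7 lower and 4 higher for biogenesis, and 0 lower and 6 higher for the regulators. Among markers of cell types and proliferation, 4 of 11 skeletal muscle and 2 of 5 red blood cell genes were lower in Plk2-/-; p53-/- tumors. Higher were 1 of 6 B cell, 1 of 6 macrophage and 1 of 6 proliferation genes. Without the 12 libraries 4 of 11 skeletal muscle, 0 of 5 red blood cell, 2 of 6 fibroblast and 1 of 6 epithelial genes were lower. There 2 of 6 proliferation and 1 of 6 B cell genes were higher. The part of these markers in the differences was not tested.

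To ask which members left the family's course, each canonical member was also fitted after the shared level of its tumor had been subtracted. This moves the background, since 71.0% of all genes were then higher and 1.64% lower, so the counts describe order within the family. Of 77 canonical members 19 were higher and 19 lower. Rpl23 at 0.80 (adjusted p = 2.59e-07) and Rpl23a at 0.77 (adjusted p = 1.95e-06) were highest, and Rps21 at −0.97, Rpl39 at −0.78 and Rps19 at −0.60 were lowest. Rpl23 and Rpl23a had not passed the test before subtraction, so their values here reflect the lower level of the rest of the family. Without the 12 libraries 11 were higher and 10 lower against 62.6% and 1.05% of all genes. There Rpl23 at 0.63, Rpl23a at 0.52, Rps21 at −0.75 and Rpl39 at −0.41 still passed, and Rps19 did not.

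Residuals, the deviation of a member from its tumor's shared level, were beyond 1 in either direction in 67 of 3157 values of 77 members in 41 tumors. For 53 members no residual was beyond 1. The map of residuals shows single tumors that stood out, which were then set beside the genes within 1 Mb on the same chromosome, as the median log2 deviation of those neighbours from their own median tumors.

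**Figure D3:**
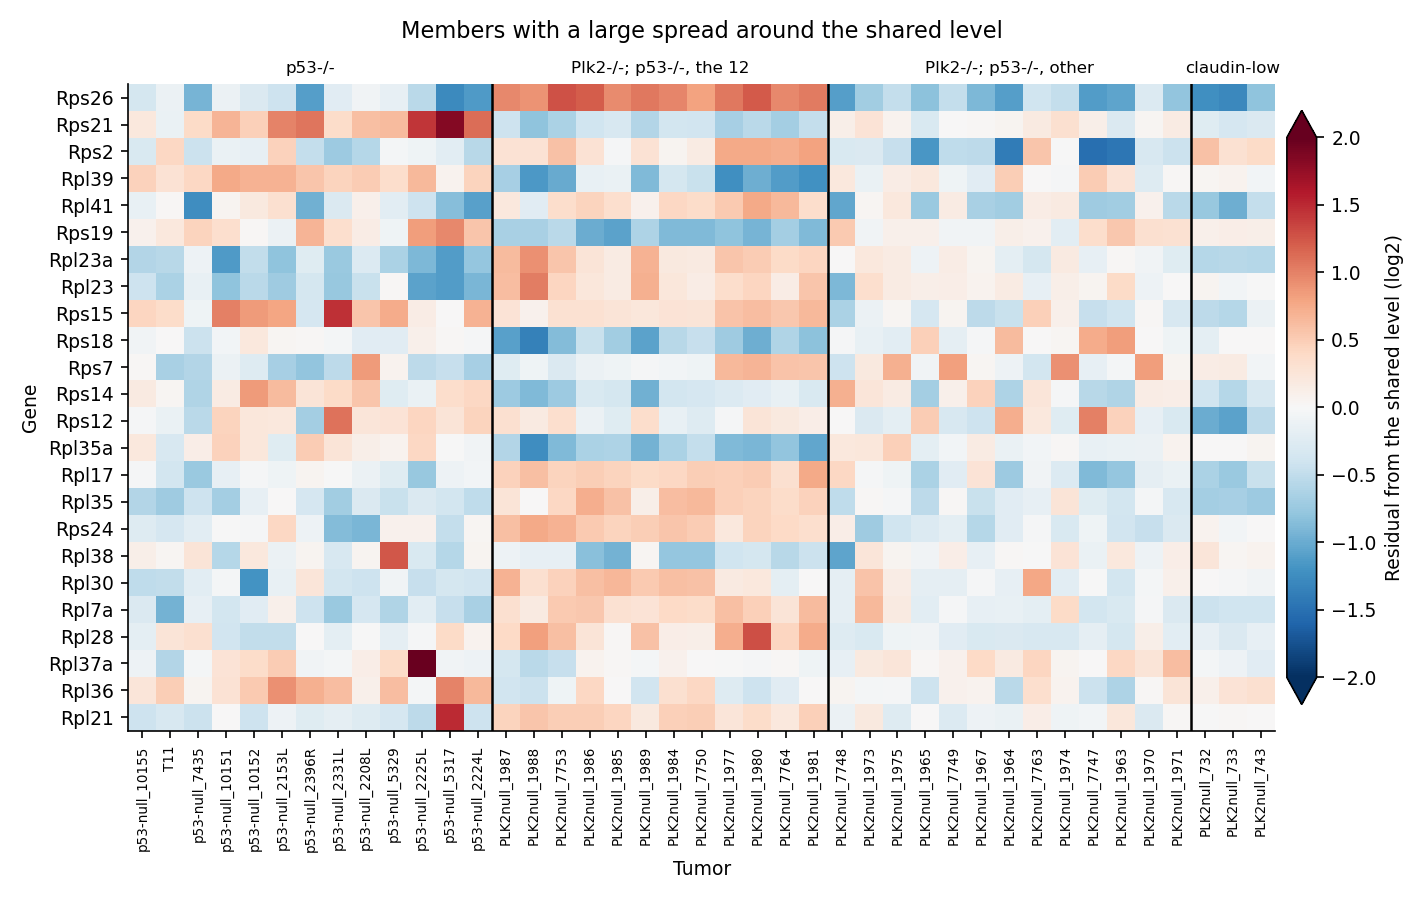
Residual from the shared level (color, log2) of 24 canonical members with a large spread (rows) in each of the 41 tumors (columns), with lines between the p53-/- tumors, the 12 libraries that stood apart, the other Plk2-/-; p53-/- tumors and the claudin-low tumors. Rps26 is positive in all 12 libraries that stood apart, and Rpl39, Rps19 and Rps18 are negative in them.

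Rps16, whose tail reaches the P site of the small subunit, was at 101679 in p53-null_2396R and at 10876 to 58420 in all other tumors, with a residual of 1.90. Its 64 neighbours had a median deviation of 1.47 in that tumor, the highest of the 41. Rps21 was highest in p53-null_5317, at 63766, with a residual of 1.83 and a deviation of its 28 neighbours of 1.25, again the highest of the 41. Rps15, chosen after its values were seen, was at 63241 in p53-null_2331L, with a residual of 1.46 and a deviation of 1.02 over 93 neighbours, the highest of the 41.

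The neighbours of Rpl37a did not move with its outlying value. Rpl37a was at 84186 in p53-null_2225L and at 4620 to 22719 in the other 40 tumors, with a residual of 1.98, while its 12 neighbours were at −0.25 there. Rps2, near the messenger RNA entry of the small subunit, was at 6956 in PLK2null_1964, 7122 in PLK2null_7747, 7639 in PLK2null_1965 and 7735 in PLK2null_1963, all below every other tumor, the next being at 11871. Its residuals in them were −1.16 to −1.51, and the deviations of its 72 neighbours −0.27 to −0.51, smaller in size but in the same direction, and lowest of the 41 in PLK2null_1963. Summed with near-identical copies, Rps2 residuals were −0.98 to −1.25.

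Across the 41 tumors the residual of a member correlated with the deviation of its neighbours with a median r of 0.51 over the 76 members with at least 5 tested neighbours, from −0.17 to 0.92. The values were 0.92 for Rps15, 0.81 for Rps16, 0.56 for Rps21, 0.24 for Rps2 and 0.09 for Rpl37a. In the 29 libraries they were 0.94, 0.82, 0.62, 0.65 and 0.16 in the same order. These are descriptions, since residuals and neighbours come from the same library.

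**Figure D4:**
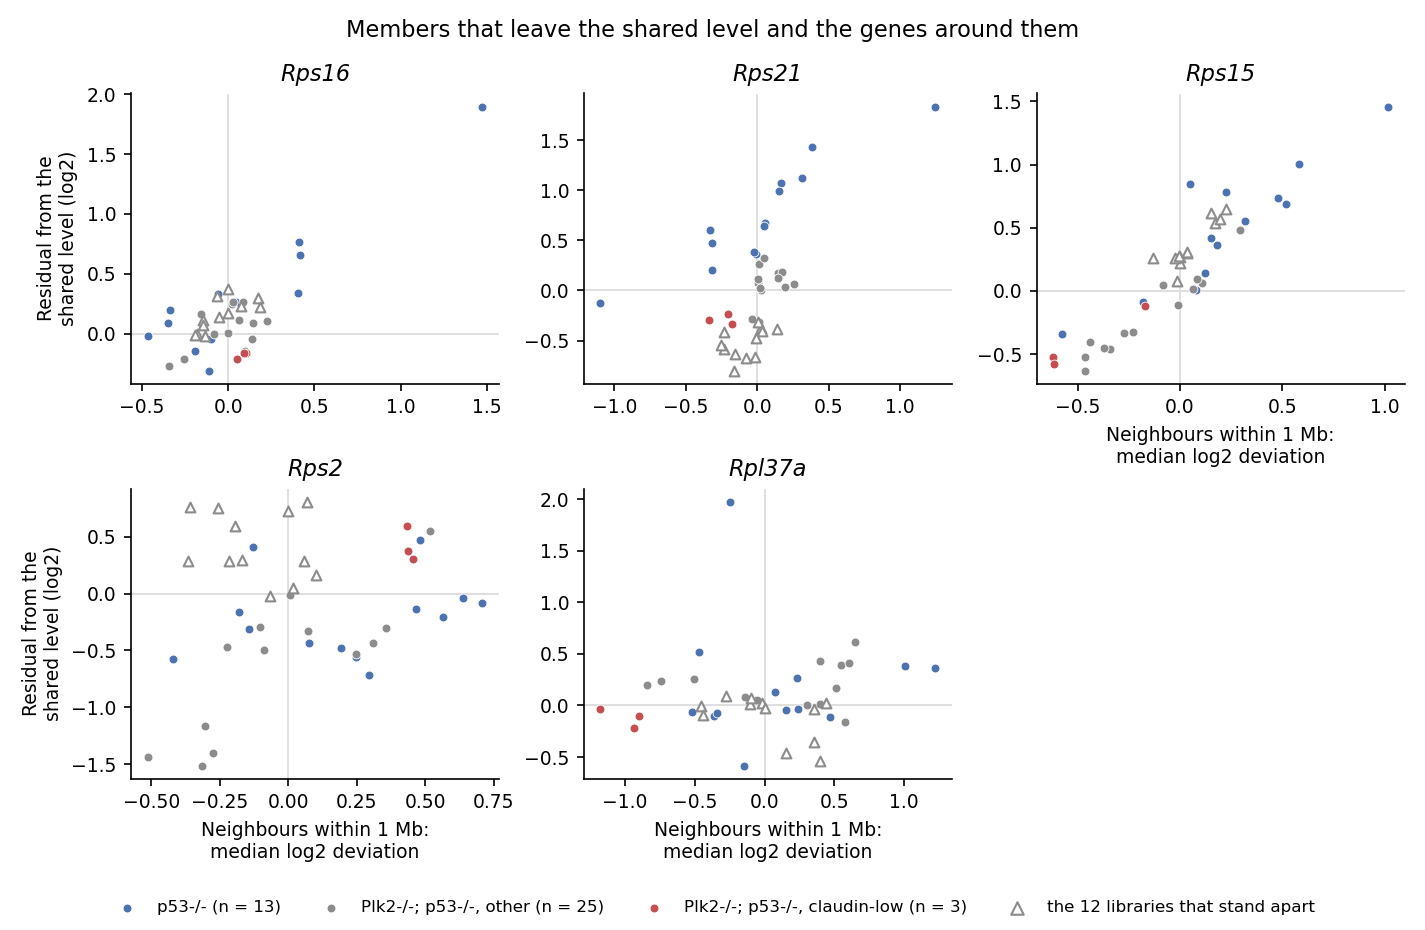
Residual from the shared level (vertical axis, log2) against the median log2 deviation of tested genes within 1 Mb (horizontal axis) for 5 members, one point per tumor, with the 12 libraries that stood apart as open triangles. The highest Rps16 tumor lies at a neighbour deviation of 1.47, while the highest Rpl37a tumor lies at −0.25.

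The second comparison sets the 3 claudin-low tumors against the other 25 Plk2-/-; p53-/- tumors. The shared level was −0.40, −0.39 and −0.27 in PLK2null_732, PLK2null_733 and PLK2null_743, and −0.70, −0.16 and 0.32 as lowest, median and highest in the others, of which 10 were below the highest claudin-low tumor. Of 77 canonical members 16 (20.8%) were lower and 0 higher, against 17.1% and 20.2% of 17153 genes, so the count was near the background. The median fold change was −0.17. Against the 13 others left without the 12 libraries, 25 members (32.5%) were lower beside 17.5% of all genes, with a median of −0.37. The count was 9 without PLK2null_732, 9 without PLK2null_733 and 13 without PLK2null_743. Cell type markers moved strongly here: summed values of 6 epithelial markers were 60.4 to 333 in the claudin-low tumors and 17590 to 118914 in the others, and those of 6 endothelial markers 165585 to 186496 and 2572 to 78025. Their part in the results was not tested.

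Rpsa was at 21699, 22382 and 22835 in the claudin-low tumors and at 27177, 45276 and 61136 as lowest, median and highest in the others. All 3 were below every other tumor. The fold change was −0.99 (adjusted p = 3.23e-05), and −0.93 (adjusted p = 0.00234) without the 12 libraries. Rpl23a was at 13019, 13225 and 14271 against 20103, 25817 and 31518, a fold change of −0.93 (adjusted p = 6.80e-06), and −0.91 without the 12 libraries.

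Rpl35, near the exit of the tunnel, was at 5169, 5241 and 5429 against 6457, 10130 and 13613, a fold change of −0.95 (adjusted p = 0.000257). Rps12 was at 7360, 7725 and 11655 against 12153, 17188 and 45083, a fold change of −1.10 (adjusted p = 0.00257). Both groups were apart for both genes, and both passed without the 12 libraries, at −0.86 and −1.30. Rps26 was at 4578, 4792 and 6955 against 5773, 14539 and 28432, where only 2 of the 3 lay below all others. Its fold change was −1.38 (adjusted p = 0.0134), −0.73 (adjusted p = 0.0228) without the 12 libraries, and short of the threshold without PLK2null_732 (adjusted p = 0.0720) or PLK2null_733 (adjusted p = 0.0797).

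In all, 8 members (9.30% of 86) had every claudin-low value below every other tumor, beside 8.87% of tested genes. They are Rpl4, Rpl7a, Rpl23a, Rpl27a, Rpl35, Rplp1, Rps12 and Rpsa. T11, the p53-/- tumor of the same class, had a shared level of 0.33, and was below the p53-/- median in 15 of the 16 members lower in claudin-low tumors, but also in 65 of all 77. It was the lowest of 13 for 1 of the 16, Rpl7a, at 14029, and for 16 of all 77.

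After the shared level was subtracted, 4 canonical members were higher and 10 lower in claudin-low tumors, against 24.3% and 12.1% of all genes. Among those higher were Rpl15 at 0.69 (adjusted p = 0.00851), Rpl22 at 0.61 and Rpl9 at 0.60, and the lowest were Rps12 at −0.94, Rpsa at −0.84, Rpl35 at −0.79 and Rpl23a at −0.77. Without the 12 libraries 2 were higher, Rpl22 at 0.50 and Rps2 at 1.03, and 11 lower, with all 4 of the lowest still past the threshold. The comparison tumors of that fit include the Rps2-low tumors PLK2null_7747, PLK2null_1963, PLK2null_1964 and PLK2null_1965. Before subtraction Rps2 was at 0.66 there (adjusted p = 0.155), short of the threshold. In the fit that holds the 12 libraries, the number of higher calls was 1 without PLK2null_732 and 1 without PLK2null_743. The number of lower calls was 6 when any one of the 3 claudin-low tumors was left out.

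All 9 paralogs and copies were below their parents in mean value per kilobase of transcript, by very different amounts. Rpl22l1 reached 64.6% of Rpl22, Rpl7l1 3.57% of Rpl7, Rpl6l 0.944% of Rpl6, Rps12l1 0.724% of Rps12, Rpl39l 0.507% of Rpl39, Rps4l 0.196% of Rps4x and Rpl3l 0.0579% of Rpl3, while Rps3a2 and Rps3a3 were at 21.3% and 2.59% of Rps3a1. Where a paralog is nearly identical to its parent, reads can be shared between them and the split is uncertain. In coding or processed sequence, Rps12l1 was 100% identical to Rps12, Rps3a2 99.5% and Rps3a3 98.9% to Rps3a1 and Rpl6l 98.7% to Rpl6, and all 4 are annotated as processed pseudogenes. Rpl39l was 85.3% identical to Rpl39, Rps4l 79.8% to Rps4x, Rpl22l1 74.6% to Rpl22 and Rpl3l 74.4% to Rpl3.

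A pair that differs along its length and a pair that does not differ are shown, since reads can tell only the first apart. The coding sequences of Rpl39 and Rpl39l, both of 156 bases, differ at 23 positions, given in capitals, from the GENCODE annotation on GRCm38.
Rpl39: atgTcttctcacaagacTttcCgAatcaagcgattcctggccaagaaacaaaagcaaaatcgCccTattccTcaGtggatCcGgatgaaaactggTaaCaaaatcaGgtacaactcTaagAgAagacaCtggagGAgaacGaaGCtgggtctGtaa
Rpl39l: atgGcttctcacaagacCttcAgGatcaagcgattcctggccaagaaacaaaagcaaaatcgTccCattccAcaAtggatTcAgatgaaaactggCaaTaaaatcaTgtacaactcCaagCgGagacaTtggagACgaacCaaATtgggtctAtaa
Rps12: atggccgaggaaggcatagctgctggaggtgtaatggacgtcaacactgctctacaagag
Rps12l1: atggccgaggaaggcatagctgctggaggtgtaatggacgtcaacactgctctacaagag
The first 60 of 399 bases are shown for Rps12 and Rps12l1, which have no capitals because no base differs.

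Rps12l1 was listed at 0 in all 13 p53-/- tumors. In Plk2-/-; p53-/- tumors 10 of 28 were at or below the floor of 3 reads and 18 were at 19.5 to 635. All 12 libraries that stood apart were among these 18, at 166 to 635, so the values moved with that split. The claudin-low tumors were at 96.2, 112 and 109. Rps12l1 reached the mean of 10 only through Plk2-/-; p53-/- tumors, so no fold between genotypes is given. The median of the 16 other Plk2-/-; p53-/- tumors was itself below the floor. The values cannot be separated from Rps12 reads.

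Rpl6l was the other member without overlap between genotypes, at 33.0, 85.4 and 164 in Plk2-/-; p53-/- tumors and 201, 378 and 630 in p53-/- tumors. Its fold change was −2.20 (adjusted p = 1.39e-12), and −1.77 without the 12 libraries. The difference Rpl6l minus Rpl6 on the log2 scale was lower in Plk2-/-; p53-/- tumors by −1.46 (permutation test, two-sided, adjusted over 12 tests p = 0.00012, the smallest that 100000 resamples allow), and in each of the 28 it was below every p53-/- tumor. Pearson's r of Rpl6l with Rpl6 was 0.91 within Plk2-/-; p53-/- and 0.93 within p53-/- tumors. Rps3a3 was lower at −1.90 (adjusted p = 1.16e-06), and −1.15 without the 12 libraries. Both are processed pseudogenes nearly identical to their parents, so how reads were split between each and its parent is uncertain.

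Rpl22l1 was at 306, 1017 and 4018 in Plk2-/-; p53-/- tumors and 1356, 1649 and 4100 in p53-/- tumors. The fold change was −0.996 (adjusted p = 0.00562) but −0.32 (adjusted p = 0.319) without the 12 libraries. Relative to Rpl22 the genotype difference was −0.10 (permutation test, adjusted p = 0.745). Both genes had lower medians in the 12 libraries, where Rpl22l1 was at 306 to 747 and Rpl22 had a median of 5325, than in the 16 others, at 720 to 4018 and a median of 8646. Their relation was therefore taken within each set, with p-values adjusted over the pairs. Across the 16 Pearson's r was −0.59 (permutation test, adjusted p = 0.0502) and Spearman's rho −0.48, and r was −0.24 without the 2 tumors farthest from the Rpl22 median. Across the 12 libraries r was −0.03 (permutation test, adjusted p = 0.923) and rho 0.01. Across the 13 p53-/- tumors r was −0.60 (permutation test, adjusted p = 0.0794) and rho −0.62, and r was −0.42 without the 2 farthest tumors. None of the 3 sets passed the threshold.

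Rpl7l1, a nucleolar relative of Rpl7, was higher relative to its parent in claudin-low tumors. It was at 2956, 3056 and 3424 in them and at 1494, 2188 and 4003 as lowest, median and highest in the others, with a fold change of 0.53 (adjusted p = 0.0679). Relative to Rpl7 the log2 difference was −2.71 ± 0.09 (SD, n = 3) in claudin-low and −3.54 ± 0.40 (SD, n = 25) in other tumors, and all 3 were above all 25. The difference of 0.83 had an exact permutation p of 0.000305, the smallest that 3276 splits allow, and an adjusted p of 0.00122 over 12 tests. It was 0.96 (exact permutation test, adjusted p = 0.00724) against the 13 others without the 12 libraries. In the limma fit of that set, Rpl7l1 itself was at 0.33 (adjusted p = 0.276) and Rpl7 at −0.63 (adjusted p = 0.0284). Between genotypes Rpl7l1 was at 1494, 2204 and 4003 against 2783, 3364 and 4405, a fold change of −0.60 (adjusted p = 9.79e-05).

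Both tissue-restricted paralogs were low in most tumors and high in a few. Rpl39l, a tunnel protein of the male germ line, was at 1.87, 14.1 and 436 in Plk2-/-; p53-/- tumors and 2.77, 16.9 and 1129 in p53-/- tumors. The highest values were 1129 in p53-null_7435 and 436 in PLK2null_7747, and the next was 112 in p53-null_5317. The median deviation of neighbours of Rpl39l was 0.90 in p53-null_7435, 0.30 in PLK2null_7747 and −0.20 in p53-null_5317, and their part was not tested. Rpl3l, at chr17:24727820-24736143 and 9.70 kb from Rps2, was at 1.17, 9.37 and 30.2 against 1.85, 6.59 and 120. Its highest values were 120 in p53-null_7435, 69.4 in p53-null_2225L and 60.4 in p53-null_2153L. Summed skeletal muscle markers were highest in p53-null_2153L at 50131 and next in p53-null_7435 at 38276, while p53-null_2225L was at 238 and ranked 20 of 41. Rpl3l was thus high both in tumors with and in a tumor without high muscle markers, and the part of muscle was not tested. The library p53-null_7435 is also the one whose Plk2 value was as low as in tumors without the gene.

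**Figure D5:**
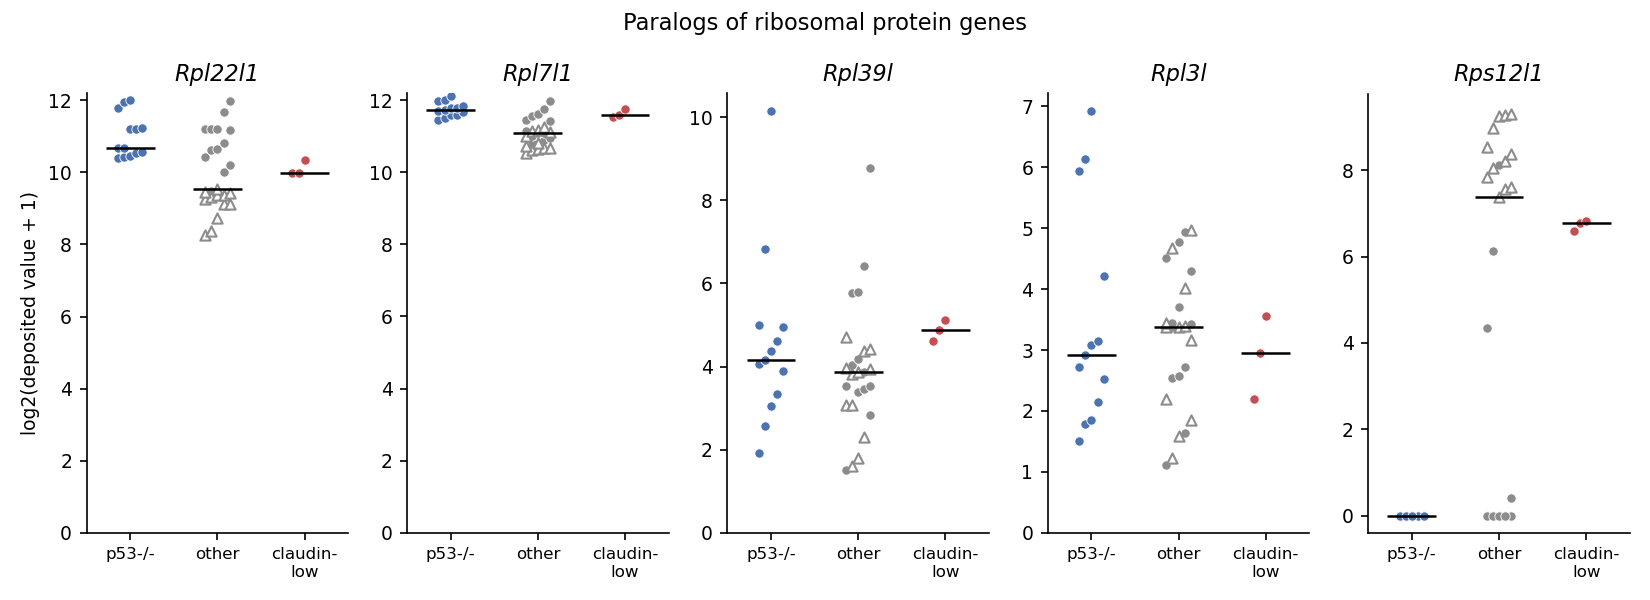
Deposited values of 5 paralogs (vertical axes, log2(value + 1)) in p53-/-, other Plk2-/-; p53-/- and claudin-low tumors, one point per tumor, with group medians as bars and the 12 libraries that stood apart as open triangles. Rpl39l and Rpl3l are high in few tumors, and Rps12l1 is listed at 0 in all p53-/- tumors and at 166 or higher in the 12 libraries.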

How the data were processed

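RNA from 41 mouse mammary tumors was measured by paired 2x50 sequencing of poly(A) libraries (TruSeq mRNA kit, HiSeq 2000/2500). Per the submitters' processing notes, Picard 2.22.4, STAR 2.7.6a, Salmon 1.4.0 and SAMtools were used with mm10. The deposited values are a signal per gene that the authors scaled to a common upper quartile, so they are neither counts nor per length. All 41 columns were used. Of values below 12, 80.7% to 85.0% per library lay within 0.1 read of a whole step, too few to recover reads.

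Genes with a mean of at least 10 were compared by limma (version 3.58.1, R 4.3.3) after log2(value + 1) transformation, and p-values were adjusted over all genes by Benjamini-Hochberg, with a threshold of 0.05. The genotype fit held all 41 tumors and the claudin-low fit the 28 Plk2-/-; p53-/- tumors; both were repeated after subtracting the shared level. Paralog differences and correlations used two-sided permutation tests, exact for 3 against 25 and with 100000 resamples otherwise. The fits were tested on simulated data. Alternatives were other pseudocounts, filters and scalings (TMM factors computed by hand), a trend term, tumors left out, members summed with copies (at least 95% identity over 80% of the member's coding sequence, BLAST 2.17.0+), and, chosen after seeing the data, leaving out the 12 libraries in which Gm26649 is at 0.

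Named genes were all paralogs with their parents, the 5 largest calls per direction and fit, the 5 lowest and 3 highest correlations with the family, the 5 largest single-tumor residuals, and 11 members with known roles. Members and lists were chosen with earlier results of these data known. Positions and lengths came from GENCODE vM21 on GRCm38, promoters from RefSeq on GRCm38.p6. Other steps ran in Python 3.11.15 with scipy 1.17.1, numpy 2.4.6, matplotlib 3.10.9 and pandas 2.3.3. Rack1 was not analysed here, and values of some single genes that these rules name are not reported here.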

Additional observations from a re-analysis of the deposited data

How the results depend on the processing

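The genotype count of canonical members stayed within 1.5 times of 72 under each alternative run, from 59 with only the 7 primary tumors named in the study's supplement and 61 with quantile normalization to 75 with TMM and without the 12 libraries, and the calls over all genes fell from 6802 to 2942 with those 7 tumors. The claudin-low count of 16 became 28 with quantile normalization, 25 without the 12 libraries, and 9 to 13 with one claudin-low tumor left out. Relative to the shared level, the genotype counts of 19 lower and 19 higher became 8 and 7 with the 7 primary tumors and 10 and 11 without the 12 libraries, where Rpl9 turned to 0.043. The claudin-low counts of 10 lower and 4 higher became 6 lower in each leave-one-out fit, 1 to 3 higher, 8 higher with the mean of members, and 2 higher without the 12 libraries. Relative to its parent, Rpl7l1 passed between genotypes with a pseudocount of 10 (0.38), without claudin-low tumors (0.36) and with the 7 primary tumors (0.54), as did Rpl39l (1.26) and Rpl3l (0.79) with a pseudocount of 10. Rps12l1 passed in the claudin-low comparison without the 12 libraries (6.58). The pooled correlation of Rpl22l1 with Rpl22 over the 41 tumors, 0.50, turned to −0.59 within the 16 tumors and −0.031 within the 12 libraries, that of Rpl7l1 with Rpl7, 0.62, to −0.080 and 0.097, and that of Rps12l1 with Rps12, −0.53, to −0.32 and 0.74. Of the 5 members with the lowest correlation, 3 were shared within Plk2-/-; p53-/- tumors, 2 within p53-/- tumors and 3 without the 12 libraries. For all of these the cause was not tested. No paired analysis was possible because the labels give no replicate numbers that groups share. Near-identical copies took a median of 7.97% of the summed signal of a canonical member and up to 68.0% (Rpl29), with 53.6% for Rpl5 and 39.5% for Rplp0.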
